A study of Mus musculus with 67 samples.

Results

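Mab21l1 and Mab21l2, a pair of close paralogs of the MAB21 family, were followed across RNA-seq libraries of mouse forelimb buds. They are 2 of the 46983 gene IDs in the tables and were taken by gene name. They were selected on their TPM values in these same libraries, for the difference between the stages, so their levels and differences are described without a test. The study asked what loss of the transcriptional repressor GLI3 does in the limb bud before and after Hedgehog (HH) signalling begins. RNA was sequenced in 14 libraries of 4 groups: E9.25 WT (n = 3), E9.25 Gli3-/- (n = 4), E10.5 WT (n = 4) and E10.5 Gli3-/- (n = 3). WT embryos were Swiss Webster, and Gli3-/- embryos, from the same background, were homozygous for the germline Gli3 allele Xt-J. The E9.25 libraries were made from whole forelimb buds of embryos with 21 to 23 somites, before HH activation. The E10.5 libraries were made from the anterior part of forelimb buds of embryos with 32 to 35 somites, after HH activation. Each library pooled buds, and the sample records list about 4 pairs for a library of the earlier stage and 2 pairs for the later, whereas the methods state a single range of embryos per pool for both stages. Stage and dissected domain therefore change together and cannot be told apart.

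The family is named for mab-21, a gene found in C. elegans through its male tail defects. Its proteins share a nucleotidyltransferase-like fold with cGAS, the sensor of cytosolic DNA, although no enzymatic activity is established for Mab21l1 or Mab21l2. Both genes are known from the developing eye, the midbrain, the branchial arches and the limb buds. Mice without Mab21l1 have small eyes with lens defects and lack preputial glands. Mice without Mab21l2 die during gestation with eye and ventral body wall defects, and human MAB21L2 variants cause eye malformations, some with skeletal dysplasia. The MAB21L2 protein has been reported to bind SMAD1 and to oppose BMP signalling.

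The libraries held an estimated 38.1 M to 56.8 M reads. Gli3 transcripts were still listed in Gli3-/- libraries, at a TPM (reads scaled by transcript length and library total) of 14.3 to 20.8 at E9.25 and 38.7 to 40.9 at E10.5, against 15.8 to 44.6 and 73.4 to 89.7 in WT. The Xt-J allele is a deletion that leaves part of the gene, so Gli3 checks the labels only in part. The lowest WT value, 15.8 in E9.25 WT replicate 2, lay inside the Gli3-/- range. This library stood apart from its group, and several of the results that rest on it are given also without it. All 6 limb mesenchyme markers were listed at a TPM of at least 1 in some library of each group. Of 13 eye and neural markers, 12 stayed under a TPM of 1 in every library, Pax6, Rax, Six3 and Otx2 among them, the exception being Tubb3. Of the 8 branchial arch and neural crest markers, Sox10 and Foxd3 stayed under a TPM of 1 in every library, while the other 6 reached it in some library and the list summed to a TPM of 39.3 to 76.7. In bulk tissue, fewer cells that transcribe a gene and less RNA per cell cannot be told apart.

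Both genes lie on chromosome 3 in mm10 coordinates, each inside a much longer gene on the other strand. Mab21l1 (ENSMUSG00000056947.5) is listed at chr3:55782510-55785001 on the plus strand, within Nbea, which runs from 55625195 to 56183701 on the minus strand. Mab21l2 (ENSMUSG00000057777.4) is listed at chr3:86545581-86548629 on the minus strand, within Lrba, which runs from 86224680 to 86782692 on the plus strand. The tables do not say whether reads were assigned by strand, nor how reads that match both paralogs were placed.

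For Mab21l2, the RefSeq window used here runs from 250 bases before to 50 bases after its start, at chr3:86548234-86548533 (GRCm38.p6, minus strand), which was searched on both strands for motifs of promoters and limb factors. The stretches with a match are shown because they are what a reader could look for next to this start, and capitals mark the match:
TATA box: gggccaaaagTATAAAtaacgaggca
CCAAT box: acaaaccaacCCAATccaaacaacg
The TATA box letters, TATAAA, begin at position -192 (chr3:86548460-86548485 for the stretch) and were found in 13.6% of the 32817 windows of all genes. The CCAAT box letters, CCAAT, begin at position -101 (chr3:86548370-86548394) and were found in 37.4% of windows. The GLI consensus GACCACCCA, held by 0.253% of windows, was not matched in this window. Nor were the E-box CATCTG (17.2%), the MEIS core TGACAG (19.2%), the PBX-HOX site TGATNNAT (8.86%) or the GC box GGGCGG (35.6%). The window lies inside the Mab21l2 span that the tables list, so the tables' gene model starts upstream of it.

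Mab21l1 was barely detected at E9.25 and well expressed at E10.5. In E9.25 WT its TPM was 0.29, 0.49 and 0.79 in replicates 1 to 3. In E9.25 Gli3-/- its TPM was 0.44, 0.09, 0.28 and 0.25 in replicates 1 to 4. Every E9.25 library was under a TPM of 1, and these values rest on an estimated 5 to 52 reads over the gene. In E10.5 WT its TPM was 28.66, 28.79, 29.47 and 36.67 in replicates 1 to 4. In E10.5 Gli3-/- its TPM was 23.18, 29.09 and 25.95 in replicates 1 to 3. The E10.5 values rest on an estimated 1373 to 2242 reads, and the lowest of them was far above the highest E9.25 value. Within each library at E10.5, 58.8 to 70.3% of the genes with a TPM of at least 1 had a lower TPM than Mab21l1.

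Mab21l2 was already transcribed at E9.25, at a more variable level. In E9.25 WT its TPM was 11.46, 4.48 and 4.90 in replicates 1 to 3. In E9.25 Gli3-/- its TPM was 10.41, 16.24, 12.48 and 4.97 in replicates 1 to 4. Each E9.25 group held libraries near 5 and libraries above 10, so the spread within a genotype covered most of the range between genotypes. In E10.5 WT its TPM was 59.96, 50.99, 83.94 and 87.54 in replicates 1 to 4. In E10.5 Gli3-/- its TPM was 71.94, 136.48 and 83.95 in replicates 1 to 3. All E10.5 values were higher than all E9.25 values, and 1 Gli3-/- library, replicate 2, was above the rest. Estimated reads over the gene were 281 to 938 at E9.25 and 2726 to 7838 at E10.5.

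**Figure D1:**
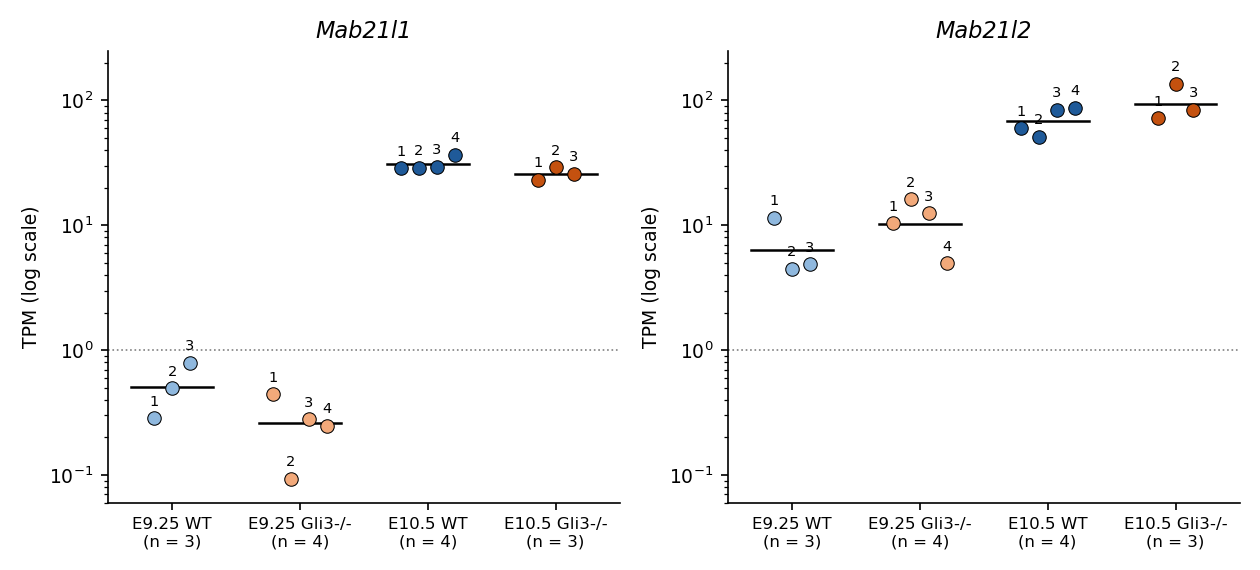
TPM (log axis) of Mab21l1 and Mab21l2 in each library of the 4 groups, numbered by replicate. Black bars are group means of log2(TPM + 1) turned back to TPM, and the dotted line marks a TPM of 1. Mab21l1 sits below 1 at E9.25 and between 23.18 and 36.67 at E10.5, while Mab21l2 sits between 4.48 and 16.24 at E9.25 and between 50.99 and 136.48 at E10.5.

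The first comparison was of the stages, E10.5 against E9.25, within each genotype. Differences are of log2(TPM + 1), a scale that compresses the change of genes with low levels, and the standard errors (SE) come from the spread of the libraries compared. Mab21l1 was higher at E10.5 by 4.39 (SE 0.15, n = 4 and 3) in WT and by 4.42 (SE 0.12, n = 3 and 4) in Gli3-/-. Its mean TPM at E10.5 was 59.0 times that at E9.25 in WT and 98.2 times in Gli3-/-, ratios whose lower terms rest on few reads. Mab21l2 was higher by 3.24 (SE 0.39) in WT and by 3.08 (SE 0.45) in Gli3-/-, with ratios of mean TPM of 10.2 and 8.84. Without E9.25 WT replicate 2 the WT differences were 4.39 for Mab21l1 and 3.03 for Mab21l2. Somite and muscle progenitor markers moved with stage, with summed TPM of 28.6 to 30.5 at E9.25 and 91.4 to 108 at E10.5 in WT, and of 25.4 to 34.2 and 92.7 to 128 in Gli3-/-. Of 7 tested in limma, 6 were higher and 1 lower in WT and 5 were higher and 1 lower in Gli3-/-. Of the flank and lateral plate markers, 4 of 6 tested were lower and 2 higher in WT, and 8 of 10 were lower and 1 higher in Gli3-/-. Among all genes tested, 48.7% changed in WT and 25.0% in Gli3-/-. The part of these tissues in the stage differences of Mab21l1 and Mab21l2 was not tested.

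The stages did not overlap for either gene in either genotype. Such a gap was common: in WT, 41.5% of the 15444 genes tested had every E10.5 library above every E9.25 library, and in Gli3-/- 22.3% of 15434 genes did. Ordered by the stage difference from the highest, Mab21l1 was number 2 in WT and number 13 in Gli3-/-, and Mab21l2 was number 26 and number 39. These places describe the values that brought the genes to attention. The median gene was itself higher by 0.34 at E10.5 in WT and by 0.06 in Gli3-/-. Relative to it, Mab21l1 was higher by 4.06 and 4.36, and Mab21l2 by 2.90 and 3.02.

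**Figure D2:**
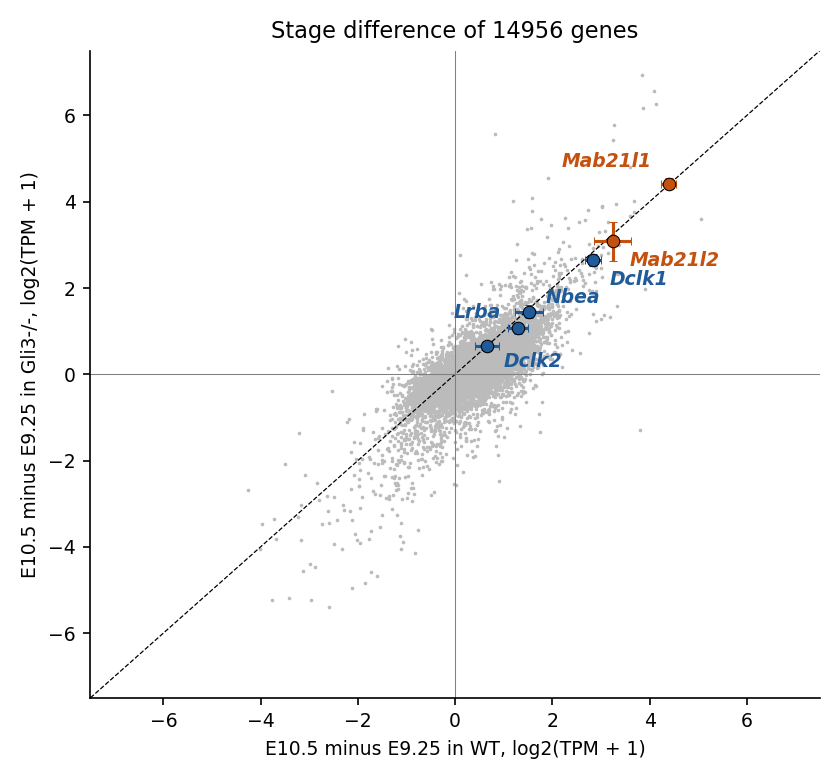
Difference of E10.5 minus E9.25 on the log2(TPM + 1) scale in WT (x axis) and in Gli3-/- (y axis) for the 14956 genes tested in both (grey). Mab21l1 and Mab21l2 (orange) and the genes around them (blue) carry bars of 1 SE, and the dashed line marks equal differences. Mab21l1 lies at 4.39 and 4.42, Mab21l2 at 3.24 and 3.08, both close to the dashed line.

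The second comparison was of the genotypes at each stage, which share the libraries of the stage comparisons. At E9.25 the Gli3-/- libraries differed from WT by -0.26 (SE 0.15) for Mab21l1 and by 0.60 (SE 0.50) for Mab21l2. The Mab21l1 value comes from levels under the filter of a TPM of 1, so the gene was not in the model fitted across genes for this comparison. Without E9.25 WT replicate 2 the values were -0.27 and 0.39, and the Mab21l2 value was 0.98 without E9.25 WT replicate 1 and 0.91 without E9.25 Gli3-/- replicate 4. At E10.5 the Gli3-/- libraries differed from WT by -0.23 (SE 0.12) for Mab21l1 and by 0.44 (SE 0.32) for Mab21l2, the latter 0.17 without E10.5 Gli3-/- replicate 2. The median gene was itself higher in Gli3-/- by 0.23 at E9.25 and differed by -0.02 at E10.5. Relative to it, Mab21l1 differed by -0.49 and -0.21, and Mab21l2 by 0.38 and 0.46. The signs of the genes were opposite at each stage by either measure. Since the scale compresses shifts at low levels, subtracting the median gene can overstate the Mab21l1 difference at E9.25. With median-of-ratios size factors that difference was -0.33.

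The genotypes overlapped for both genes at both stages, so neither gene was among the genes without overlap, which made up 13.3% of the genes tested at E9.25 and 19.3% at E10.5. At E10.5 the Mab21l1 overlap was narrow, with Gli3-/- replicate 2 at a TPM of 29.09 between WT libraries at 28.79 and 29.47. The Mab21l2 overlap at E10.5 was wide, since 2 of the 3 Gli3-/- libraries were within the WT range. The difference of the genotype effects between stages, E10.5 minus E9.25, was 0.03 (SE 0.20) for Mab21l1 and -0.16 (SE 0.59) for Mab21l2. It was 0.05 for Mab21l2 without E9.25 WT replicate 2. The median gene stood at -0.24, and relative to it the values with all libraries were 0.26 for Mab21l1 and 0.07 for Mab21l2. The flank and lateral plate markers moved with genotype at E9.25, with summed TPM of 90.6 to 230 in Gli3-/- against 29.2 to 65.1 in WT. At E9.25 the endothelium sums were also apart, at 108 to 157 in Gli3-/- against 59.3 to 94.9 in WT. So were the eye and neural sums, at 2.81 to 4.88 against 6.33 to 12.9. In limma 4 of 10 flank and lateral plate markers tested at E9.25 were higher and 0 lower. By contrast 0 of 6 endothelium markers passed, and the only eye and neural marker tested, Tubb3, did not pass. The limb mesenchyme markers moved with genotype at E10.5, with summed TPM of 645 to 684 in Gli3-/- against 834 to 1017 in WT. In limma 4 of 6 were lower and 1 higher, where 4.77% of all genes tested changed. At E10.5 the surface ectoderm sums were also apart, at 292 to 326 in Gli3-/- against 206 to 262 in WT. So were the branchial arch and neural crest sums, at 39.3 to 41.1 against 45.1 to 59.2. In limma only 1 of 10 surface ectoderm markers was higher and 0 lower, and their median difference was -0.28, of the other sign than the sum. Of 5 branchial arch and neural crest markers tested, 1 was lower and 0 higher. The part of these markers in the values above was not tested.

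The balance between the paralogs shifted with stage. TPM is scaled by transcript length, so levels can be set beside each other within a library. Mab21l2 was the higher of the paralogs in all 14 libraries. Its TPM was 6.18 to 40.1 times that of Mab21l1 in E9.25 WT and 20.1 to 173 times in E9.25 Gli3-/-. At E10.5 it was 1.77 to 2.85 times that of Mab21l1 in WT and 3.10 to 4.69 times in Gli3-/-. Mab21l1 thus made up 0.574 to 13.9% of the summed TPM of the pair at E9.25 and 17.6 to 36.1% at E10.5. At E10.5 the ratios of the genotypes did not overlap, with a gap from 2.85 to 3.10, although each gene alone overlapped. For single genes such a gap was found in 19.3% of those tested at this stage, and no share was computed for ratios of genes. At E9.25 they did overlap, and the library with the most Mab21l2, Gli3-/- replicate 2, had the least Mab21l1, an estimated 5 reads.

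No other tested gene with a MAB21 domain had a stage difference of the size seen for the paralogs. Of 10 such genes 9 were listed, and 7 or fewer passed the filter in each comparison. Genes were tested with limma on log2(TPM + 1), with p-values adjusted over all genes tested by the Benjamini-Hochberg method. Between stages in WT, 1 of 6 tested genes was higher and 0 were lower, where 48.7% of all genes tested changed. This was Mab21l3, the nearest relative in name, higher by 0.79 (SE 0.16, limma adjusted p = 0.00504) with a TPM of 0.233 to 0.626 at E9.25 and 1.45 to 1.68 at E10.5. It passed the filter of a TPM of 1 only through its E10.5 WT libraries. It could thus enter this test only by being higher at E10.5. Between stages in Gli3-/-, 0 of 7 were higher and 1 was lower, where 25.0% of all genes tested changed. This was Mb21d2 (difference -0.60, SE 0.15, limma adjusted p = 0.0135), which was also lower in WT once the libraries were rescaled by median-of-ratios size factors (difference -0.52, limma adjusted p = 0.00618). None of the 6 tested at E9.25 and the 7 tested at E10.5 passed for genotype in limma, against 0.136% and 4.77% of all genes tested, and none of 7 passed for the interaction of stage and genotype, where 2.13% of all genes tested did. Mb21d1, which encodes cGAS, stayed under a TPM of 1 in every library. Mief1, a mitochondrial fission factor, had the highest group means after Mab21l1 and Mab21l2 at E10.5, at a TPM of 22.6 in WT and 22.0 in Gli3-/-.

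**Figure D3:**
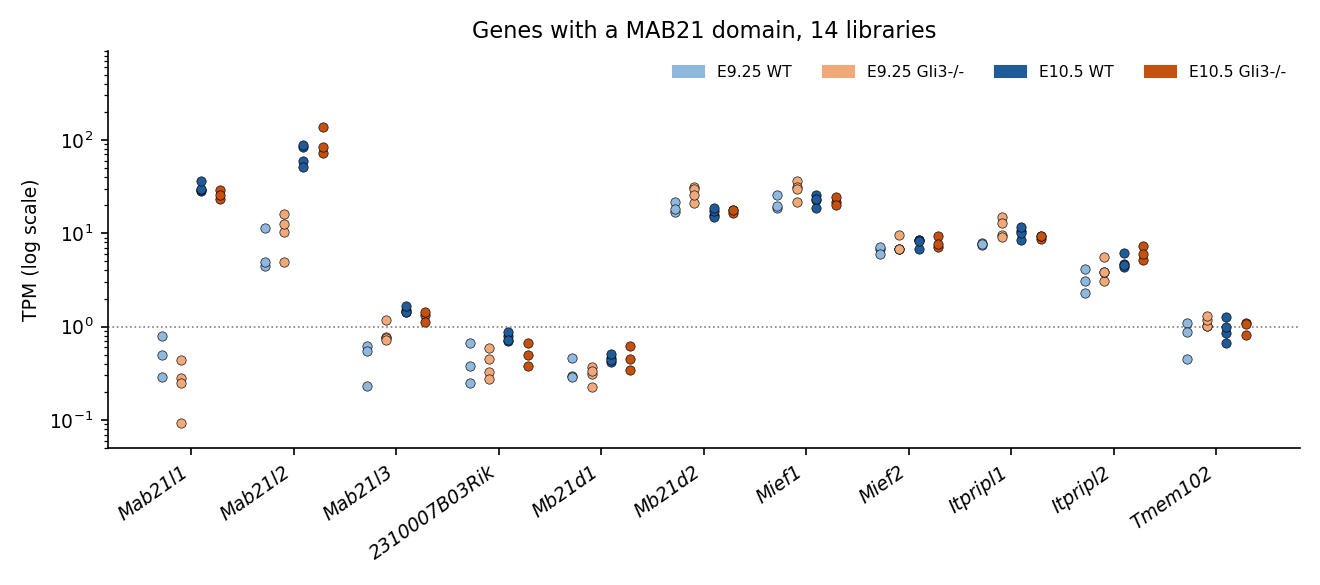
TPM (log axis) of Mab21l1, Mab21l2 and the 9 other listed genes with a MAB21 domain, with a point per library coloured by group and a dotted line at a TPM of 1. Mab21l1 and Mab21l2 show separated stages, with Mab21l1 below 1 at E9.25 and Mab21l2 reaching 136.48 at E10.5, while Mb21d2 and Mief1 stay between 14.9 and 36.3 in all libraries.

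The paralogs sit in paired genomic blocks. Nbea and Lrba, the genes that contain them, both encode large BEACH-domain proteins of vesicle traffic. Beside each block lies a doublecortin-like kinase gene, Dclk1 near Mab21l1 and Dclk2 near Mab21l2. Nbea had a mean TPM of 4.21 in E9.25 WT, 4.56 in E9.25 Gli3-/-, 13.4 in E10.5 WT and 14.1 in Gli3-/- at that stage. It rose with stage by 1.51 in WT (SE 0.25, limma adjusted p = 0.00214) and by 1.45 in Gli3-/- (SE 0.16, limma adjusted p = 0.000134). Lrba had a mean TPM of 3.53, 4.55, 9.89 and 10.51 in the same order of groups. It rose by 1.29 in WT (SE 0.20, limma adjusted p = 0.00165) and by 1.06 in Gli3-/- (SE 0.15, limma adjusted p = 0.000701). Without E9.25 WT replicate 2 the WT differences were 1.21 for Nbea and 1.08 for Lrba. Since the strand rule is not stated, reads of Mab21l1 and Nbea, or of Mab21l2 and Lrba, cannot be told apart where they overlap.

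Dclk1 rose with stage by 2.84 in WT (SE 0.17, limma adjusted p = 2.84e-05) and by 2.65 in Gli3-/- (SE 0.16, limma adjusted p = 2.25e-06). Its TPM was 1.00 to 1.89 at E9.25 and 12.7 to 18.7 at E10.5. Dclk2 rose less, by 0.65 in WT (SE 0.23, limma adjusted p = 0.0454) and by 0.65 in Gli3-/- (SE 0.16, limma adjusted p = 0.0140). The WT call of Dclk2 was lost with size factors, at 0.44 (limma adjusted p = 0.123), and with quantile normalization. Within 500 kb of Mab21l1, 18 other genes were listed and 2 passed the filter, Dclk1 and Nbea, both higher at E10.5 in both genotypes. Within 500 kb of Mab21l2, 22 other genes were listed and 8 passed the filter. In WT 4 of these 8 were higher at E10.5 and 1 was lower, the ribosomal protein gene Rps3a1, and in Gli3-/- 4 were higher and 0 lower. With size factors 2 were higher and 1 lower in WT, and without E9.25 WT replicate 2 the counts were 3 and 1. The Rps3a1 call was lost with quantile normalization (difference -0.23, limma adjusted p = 0.0717). These shares can be read against the 48.7% and 25.0% of all genes that changed. No gene near either paralog passed for genotype at either stage, or for the interaction, in limma. Of all genes tested, 0.136% passed for genotype at E9.25, 4.77% at E10.5 and 2.13% for the interaction.

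**Figure D4:**
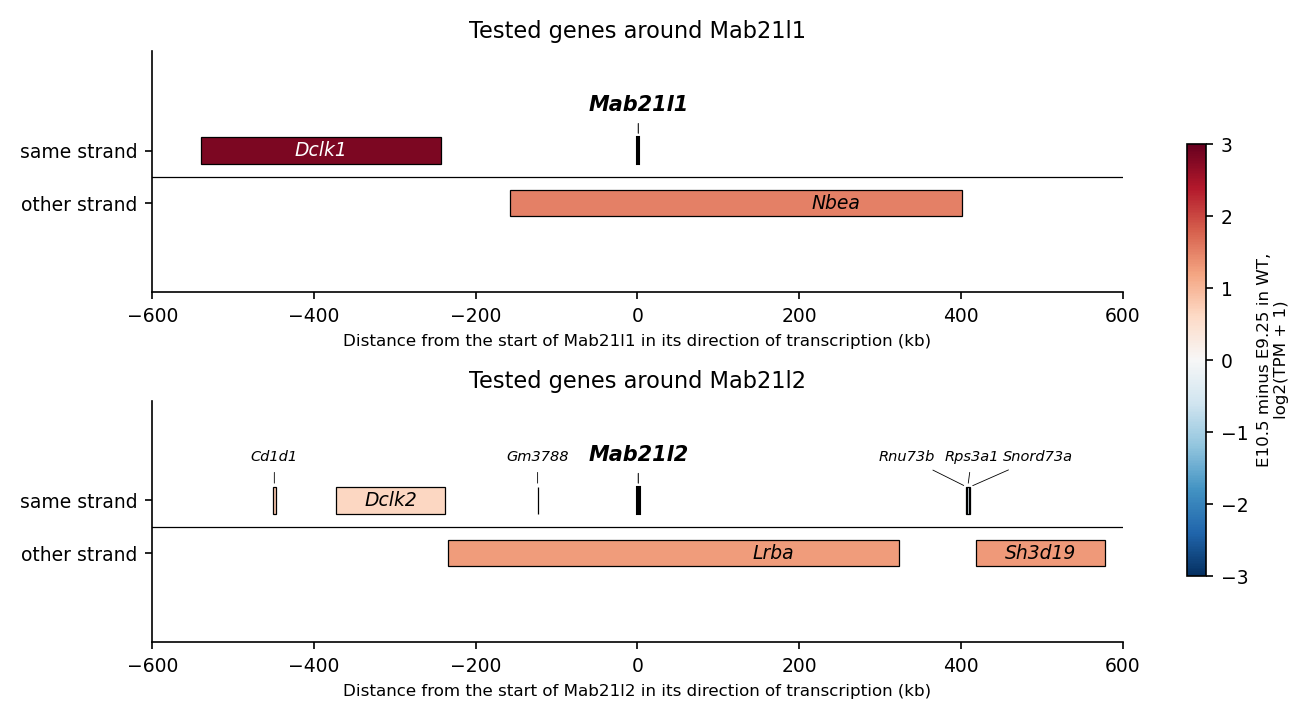
Tested genes within 500 kb of Mab21l1 (top) and Mab21l2 (bottom), as distance in kb from the start of each in its direction of transcription, with genes on its strand above the line and on the other strand below. Colour gives the difference of E10.5 minus E9.25 in WT on the log2(TPM + 1) scale. Each paralog (black) lies inside a long gene on the other strand, Nbea at 1.51 or Lrba at 1.29, with Dclk1 at 2.84 or Dclk2 at 0.65 upstream.

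Genes whose levels over the 14 libraries were most like those of each paralog were ranked by the root mean square difference of log2(TPM + 1), each gene centred on its own mean, over 16368 genes. The 4 nearest to Mab21l1 were Gm43120, Prdm16, Scx and 2610203C20Rik, at 0.38 to 0.48 against 2.16 for the median gene. Prdm16 encodes a zinc finger regulator of cell fate and Scx a bHLH factor of tendon progenitors. Prdm16 had a mean TPM of 1.19 in E9.25 WT, 0.772 in E9.25 Gli3-/-, 27.2 in WT at E10.5 and 23.3 in Gli3-/- at E10.5. Scx had 2.22, 2.11, 41.0 and 51.3 in the same order. Gm43120 was listed at 0 in all 4 E9.25 Gli3-/- libraries and at 31.2 and 31.4 on average at E10.5. It lies within Tbx15 on the other strand (chr3:99254698-99261285 against 99240381 to 99354259), so its reads cannot be told apart from those of Tbx15. The span of 2610203C20Rik contains Mir100, Mirlet7a-2 and Mir125b-1 on its strand.

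The 4 nearest to Mab21l2 were Cbln1, Sema6c, Aff2 and Sox9, at 0.44 to 0.48 against 1.54 for the median gene. Sox9 encodes the transcription factor that starts cartilage formation, Cbln1 a secreted synaptic organiser and Sema6c a semaphorin. Sox9 had a mean TPM of 8.67 in E9.25 WT, 13.7 in E9.25 Gli3-/-, 57.5 in WT at E10.5 and 66.8 in Gli3-/- at E10.5. Cbln1 had 0.445, 0.730, 8.12 and 19.7 in the same order. The lists of the paralogs shared no gene. Mab21l2 was number 36 among the genes nearest to Mab21l1, and Mab21l1 was number 214 among those nearest to Mab21l2, at 0.93 in both directions. All these likenesses rest on the same 14 libraries and on the stage difference within them.

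**Figure D5:**
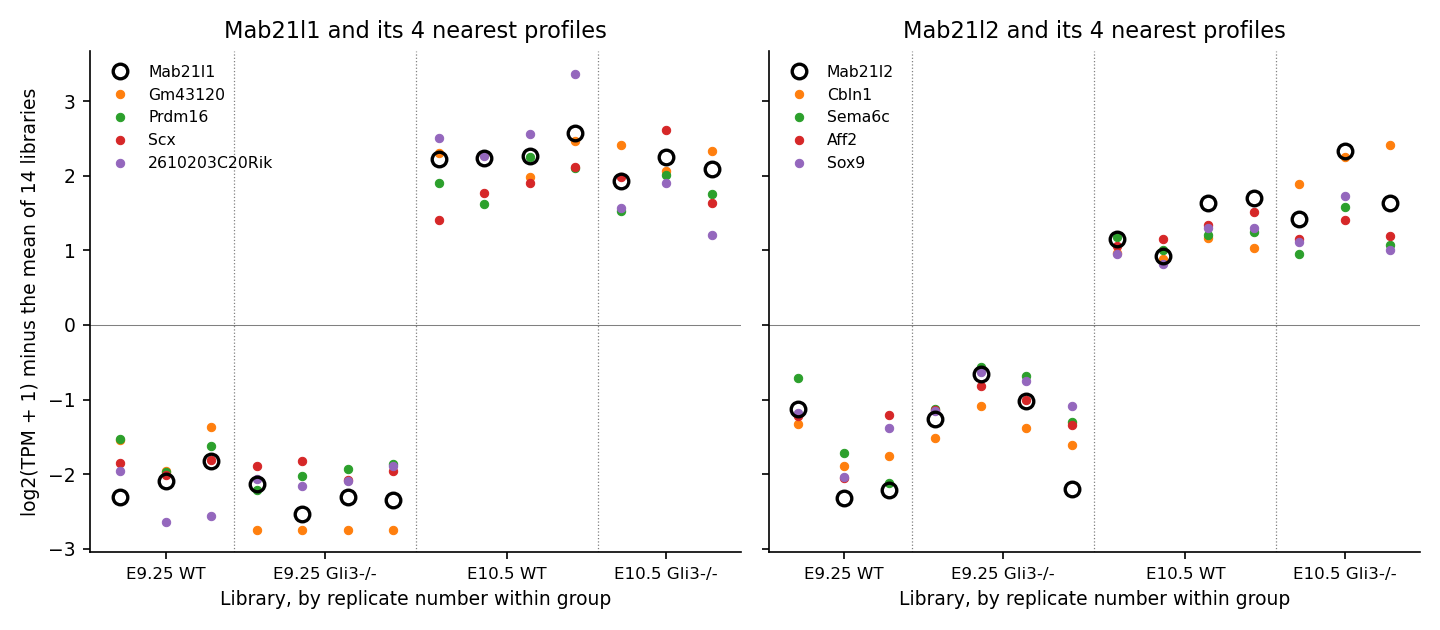
Level of Mab21l1 (left) and Mab21l2 (right, open black circles) and of the 4 genes nearest to each, as log2(TPM + 1) minus the gene's mean over the 14 libraries, with libraries placed by group and replicate number. In both panels all E9.25 points lie below 0 and all E10.5 points above it, and Gm43120 forms a flat row in E9.25 Gli3-/-, where it is listed at 0.

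BMP pathway genes were examined because of the reported link of MAB21L2 to SMAD1. Several of them differed between genotypes at E10.5: 2 of 24 tested were higher and 8 lower, where 4.77% of all genes tested changed. The same counts were found with size factors. The median difference was -0.10, against -0.02 for all genes tested. Msx2, a target of BMP signalling, was lower (difference -2.25, SE 0.13, limma adjusted p = 7.36e-05), as was the ligand gene Gdf6 (difference -2.04, SE 0.15, limma adjusted p = 0.000287). Grem1, a secreted BMP antagonist, was higher by 1.19 (SE 0.18, limma adjusted p = 0.00626). At E9.25, 0 of 25 passed in limma, where 0.136% of all genes tested did. Between stages in WT, 12 of 25 were higher and 2 lower, against 48.7% of all genes tested that changed. These counts were 6 and 4 with size factors and 10 and 3 without E9.25 WT replicate 2. Between stages in Gli3-/-, 5 of 25 were higher and 10 lower, against 25.0%. Grem1 rose in both, by 2.54 in WT (SE 0.21, limma adjusted p = 8.85e-05) and by 3.52 in Gli3-/- (SE 0.19, limma adjusted p = 1.09e-06), and Bambi, a decoy receptor, was lower in both, at -1.34 in WT (SE 0.10, limma adjusted p = 6.14e-05) and at -1.54 in Gli3-/- (SE 0.11, limma adjusted p = 5.97e-06). Between genotypes at E10.5, Mab21l1 and Mab21l2, which were not tested, differed by -0.23 and 0.44. Both overlapped with WT, and only 19.3% of all genes tested at this stage did not.

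Genes of the anterior and proximal limb bud were compared because the E10.5 libraries came from anterior tissue. Between stages in WT, 11 of 16 tested were higher and 2 lower, where 48.7% of all genes tested changed, with a median of 1.252 against 0.34 for all genes tested. Between stages in Gli3-/-, 6 of 15 were higher and 8 lower, where 25.0% changed, with a median of -0.77 against 0.06, while Mab21l1 and Mab21l2 were higher by 4.42 and 3.08. In WT, Pax1, a shoulder girdle factor, rose with stage by 4.36 (SE 0.42, limma adjusted p = 0.000191), as much as Mab21l1 on this scale. Tbx15, a T-box factor of proximal limb, rose by 4.12 in WT (SE 0.19, limma adjusted p = 2e-05) and by 6.27 in Gli3-/- (SE 0.18, limma adjusted p = 3.48e-08). In Gli3-/- at E10.5, of 15 tested, 0 were higher and 12 lower than in WT, where 4.77% of all genes tested changed, Pax1 (difference -4.23, SE 0.40, limma adjusted p = 0.000645) and Alx4 (difference -3.51, SE 0.37, limma adjusted p = 0.00103) among them. The values for Mab21l1 and Mab21l2 in the same libraries were -0.23 and 0.44. At E9.25, 1 of 14 was lower, Tbx15 (difference -1.84, SE 0.26, limma adjusted p = 0.0340), where 0.136% of all genes tested changed, and 0 of 14 without E9.25 WT replicate 2.

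Of the posterior and HH response genes, 11 of 16 tested were higher and 1 lower in E10.5 Gli3-/-, against 4.77% of all genes tested that changed. Hoxd13, a factor of the digit region, was higher by 3.99 (SE 0.43, limma adjusted p = 0.00118) and Hoxd11 by 2.11 (SE 0.19, limma adjusted p = 0.000544). At E9.25, 2 of 12 were higher and 0 lower, against 0.136%. Hoxd11 and Hoxd13 did not pass there, at -0.99 and -0.74 (limma adjusted p = 0.178 and 0.207). The list shares Osr1 with the flank and lateral plate markers, and the part of flank tissue in this count was not tested. Mab21l1 and Mab21l2, which were not tested, overlapped between genotypes at both stages. Of all genes tested, only 13.3% at E9.25 and 19.3% at E10.5 did not overlap.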

How the data were processed

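Each library was RNA of pooled forelimb buds, sequenced by the authors as single reads of 100 bases and aligned with HISAT2. The tables that the authors deposited give coverage (mean read depth per base), FPKM and TPM per gene ID. The tool that made these values is not given in the sources used here, and the submitters' processing notes name mm10. The tables hold no counts, so count tests were not run. TPM was summed over lines of the same gene ID and taken as log2(TPM + 1). Read totals of libraries were estimated by dividing coverage by FPKM, given the read length. Reads over a gene were estimated as its coverage times its listed span, divided by the read length, and limit the precision of low genes. Samples were grouped by their titles, stage and strain labels. The other data types of the study were not used here.

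Within each comparison, genes that reached a TPM of 1 in 3 or more libraries entered limma 3.58.1 under R 4.3.3 (lmFit, then eBayes with a trend), two-sided, with Benjamini-Hochberg adjustment and a threshold of 0.05. Buds were pooled over several litters per the methods, and no source used here says whether pools of a group shared litters, so p-values measure the spread between pools. Mab21l1 and Mab21l2 are given without a test. The members, the lists and the alternatives were chosen with earlier results of these data known. Genes named were the paralogs, Gli3, the genes containing the paralogs, tested neighbours, the 5 genes nearest in profile to each paralog, and, per list and comparison, up to 4 with the largest difference among those that passed and up to 2 among those that did not. The procedure was tested on simulated data. Alternatives were a pseudocount of 0.1, other scalings, other filters (none, or a TPM of 5), eBayes without a trend, a single model of all 14 libraries, the replicate number as a block, and each library left out in turn. Some genes that this rule names are not reported here. Of 26 named genes, 14 overlap another listed gene that reaches a TPM of 1, 2 of them on the same strand. No label says that equal replicate numbers mark paired libraries. The deviations of same-numbered libraries, taken against the group means, had a mean r across genes of -0.18 at E9.25 and -0.05 at E10.5, over 3 pairs each. So few pairs cannot decide on pairing. The authors' own names for the E10.5 Gli3-/- libraries also carry other numbers than the titles. Python 3.11.15 with pandas 2.3.3, NumPy 2.4.6 and matplotlib 3.10.9 was used for other steps. The table of promoter windows used here, taken from RefSeq (GRCm38.p6), had a window for 1 of the 2 genes.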

Additional observations from a re-analysis of the deposited data

Results flagged for a closer look

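In E10.5 WT, replicate 4 stood apart for Mab21l1, with a TPM of 36.67 against 28.66 to 29.47 in the other 3 libraries. The gap to the next library was 0.887 of the range of the group on the log2(TPM + 1) scale of its 4 libraries, more than Dixon's 95% limit, and 14 groups of this size were examined, of which chance singles out about 1 in 20. Without it the genotype difference of Mab21l1 at E10.5 was -0.15.

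Of 16 named genes checked, 7 had a genotype effect at E10.5 that differed from that at E9.25 in limma's interaction test, where 2.13% of all genes tested passed. Genes were named partly for large differences among those that passed in these same comparisons, so this count follows in part from that choice. The values for Mab21l1 (0.03) and Mab21l2 (-0.16) were not tested. The effect at E10.5 minus that at E9.25 was -4.29 for Pax1 (SE 0.48, limma adjusted p = 0.000382), -3.09 for Alx4 (SE 0.47, limma adjusted p = 0.00327), -2.54 for Gdf6 (SE 0.34, limma adjusted p = 0.00130) and -2.44 for Msx2 (SE 0.21, limma adjusted p = 0.000104). It was 4.74 for Hoxd13 (SE 0.52, limma adjusted p = 0.000358), 3.10 for Hoxd11 (SE 0.32, limma adjusted p = 0.000219) and 2.15 for Tbx15 (SE 0.28, limma adjusted p = 0.000985).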

How the results depend on the processing

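The stage differences of Mab21l1 and Mab21l2 were positive under all 12 alternatives in each genotype, and their genotype differences held their sign under all 12. On the log2(TPM + 0.1) scale Mab21l1 gave -0.78 for genotype at E9.25, 5.71 and 6.25 for stage in WT and Gli3-/-, and 0.54 for the interaction, and the smaller pseudocount by construction gives low levels more weight. Its WT stage difference was 4.16 with size factors and 4.04 with quantile normalization. Leaving out each library in turn gave 4.28 to 4.52 for Mab21l1 and 3.03 to 3.62 for Mab21l2 in WT, 4.34 to 4.499 and 2.78 to 3.29 in Gli3-/-, -0.38 to -0.14 and 0.39 to 0.98 for genotype at E9.25, -0.31 to -0.15 and 0.17 to 0.63 at E10.5, and -0.10 to 0.14 and -0.54 to 0.05 for the interaction.

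Without a library, limma called 2 to 196 genes for genotype at E9.25 (20 with all), 301 to 680 at E10.5 (747), 5139 to 8305 for stage in WT (7520), 2129 to 4326 in Gli3-/- (3853) and 150 to 1433 for the interaction (348). The lowest counts came without E9.25 WT replicate 3 (2), E10.5 Gli3-/- replicate 3 (301 and, for the interaction, 150) and E10.5 Gli3-/- replicate 2 (2129), and the highest at E9.25 and for the interaction without E9.25 WT replicate 1 (196 and 1433). Without E9.25 WT replicate 2 the interaction had 218 calls. The median gene then stood at 0.25 for stage in WT, 0.14 for genotype at E9.25 and -0.16 for the interaction. With the replicate number as a block, which the labels do not tie to litters, the calls were 66, 164, 4699, 3824 and 42, and the Mab21l1 stage difference in WT was 4.31. A single model of all 14 libraries called 1185 genes for genotype at E9.25 and 406 at E10.5. With no filter limma called 0 and 391, with 3542 at an unadjusted p under 0.05 at E9.25. Of the calls for stage in WT, 5885 of 7520 were higher, and 3072 of 6405 with size factors. Of those for stage in Gli3-/-, 2437 of 3853 were higher, and 2356 of 4654 with size factors. Of those at E9.25, 16 of 20 were higher, and 17 of 27 with size factors, and for the interaction 78 of 348, and 136 of 360. The cause of these shifts was not tested.

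Nbea and Lrba kept their stage calls under all 15 alternatives in each genotype. Signs turned only for values that did not pass: Nbea for genotype at E9.25 (-0.058 with size factors, -0.14 with quantile normalization, -0.17 to 0.32 without a library) and for the interaction (0.17, 0.26, 0.015 with the replicate block, -0.24 to 0.25 without a library), and Lrba for the interaction (0.0056 and 0.12). Of the 5 genes nearest in profile, 5 for Mab21l1 and 4 for Mab21l2 were shared with size factors, and 0 and 0 when Spearman's rho ranked them. At E9.25 the depth limits Mab21l1, whose values rest on 5 to 52 reads.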
